A study of Drosophila melanogaster with 16 samples.

Results

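The histone mark H3K9me3 was mapped in regions of chromosome arm 2L of Drosophila melanogaster, in ovaries with a knockdown of piwi and in ovaries with a knockdown of white. The members are all regions that the authors' 2 H3K9me3 lists, 1 for each driver, place on 2L, without the separate heterochromatin scaffold of that arm. There were 530 such regions of 5144 in the tj list and 533 of 5421 in the nos list, 1063 of 10565 in all. Of these, 152 in the tj list and 147 in the nos list began at or beyond 20 Mb of build dm3, in the part of the arm that runs towards the centromere. The 4 groups were tj-GAL4 with knockdown of piwi, tj-GAL4 with knockdown of white, nos-GAL4 with knockdown of piwi and nos-GAL4 with knockdown of white. All groups carried a GAL4 driver and a knockdown, the flies were 3 to 5 days old and kept at 25 degrees, and each ChIP used chromatin of 50 ovaries. Each group had 1 H3K9me3 library, so the differences below could not be checked against replicates and were not tested. The white gene, needed for eye colour, served as the control.

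H3K9me3, trimethylation of lysine 9 on histone H3, is the main mark of silent heterochromatin and is bound by HP1a. In ovaries, Piwi is a nuclear Argonaute protein loaded with small piRNAs, which guide it to nascent transposon transcripts, and silencing there is accompanied by H3K9me3. The tj driver is active in the somatic cells that surround the germline, and the nos driver is active in the germline itself. Whole ovaries hold both, so the mark in the cells where a driver is silent is part of every value. On the left arm of the second chromosome the euchromatin, rich in genes, passes towards the centromere into pericentromeric heterochromatin, rich in transposon copies. In RefSeq's Release 6 annotation the arm carries piwi itself, the piRNA pathway genes aub, vas, zuc and del, the gene of HP1a, tj, the heterochromatic genes lt and cta, tsh, and the histone gene array. That annotation is of another build than the lists, so no gene was placed on a region.

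The regions are given as RPM, the reads of a region scaled to the size of its library, and every RPM value was a whole number of reads. The library totals behind them were 1435888 reads for piwi and 1451863 for white knockdown under tj, and 987157 for piwi and 1385901 for white knockdown under nos. The change of a region is the ratio of its RPM in piwi over its RPM in white knockdown, with a 95% Clopper-Pearson interval that covers counting error only. The lists hold no input reads, so the ratios are not set against the amount of DNA. They also came with the authors' fold and adjusted p-value, and every adjusted p-value under 0.05 in the authors' deposited tables belonged to a region with a ratio above 1, so losses have no such value. A region can enter a list through 1 library alone. It can pass the minimum of reads used below in the same way, it then has to differ, and shares of regions past a size describe these lists and not the arm.

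In the control ovaries the mark was unevenly spread along the arm. The regions from 20 Mb on made up 43.5% of the listed length in the tj list but held 62.5% of the H3K9me3 reads of the arm in tj white knockdown, and under nos they made up 45.9% of the length and held 64.7% of the reads. Per kb of region, tj white knockdown had 42.7 RPM from 20 Mb on and 19.8 RPM before it, a 2.16-fold difference in level. In nos white knockdown the levels were 43.3 and 20.04 RPM per kb. Both controls thus had about the same level in each part. Most of the excess lay in the last bin, from 22 Mb on, where 77 tj regions covered 529.5 kb at 53.2 RPM per kb in the tj control. The 20 bins of 1 Mb before 20 Mb held 8 to 30 regions each, covered 13.5 to 103.0 kb and had 14.5 to 25.4 RPM per kb. The bins that begin at 20 and 21 Mb had 21.02 and 20.94 RPM per kb, as low as the rest of the arm, and differed from it in covering more sequence, 121.0 and 133.5 kb. Single regions were 0.5 to 40.5 kb wide, with a median of 2.0 kb in both lists. The median width was 3.0 kb from 20 Mb on and 2.0 kb before it in the tj list, and 2.5 and 1.5 kb in the nos list.

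Under the tj driver the mark of the arm as a whole differed between the knockdowns by less than its counting interval, while many single regions differed. All 2L regions together took 5.39% of the reads of the piwi library (95% interval 5.36% to 5.43%) and 5.36% of the white library (5.32% to 5.398%), a ratio of 1.01 (0.996 to 1.02). Of the 530 regions, 454 had at least 50 reads over both libraries, and their median ratio was 0.965, with quartiles at 0.698 and 1.27. Among them 102 (22.5%) were at least 1.5-fold lower in piwi knockdown, beside 15.2% of all regions in the list. Another 74 (16.3%) were at least 1.5-fold higher, beside 11.7% of all regions. The counting interval lay below 1 for 125 (27.5%, beside 20% of all regions) and above 1 for 88 (19.4%, beside 14.8%). By the authors' deposited table, 145 of the 530 regions (27.4%) were higher at an adjusted p under 0.05, beside 22.8% of the list. Regions past a size were thus somewhat more frequent on 2L than in the list as a whole, in both directions. For regions past 1.5-fold this was not particular to 2L, since 3L and 3R also exceeded the list in both directions. On X the lower regions alone did so.

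Under the nos driver the arm as a whole differed little in the values as deposited. Single regions spread further towards lower values. All 2L regions took 4.68% of the piwi library (4.64% to 4.72%) and 4.73% of the white library (4.69% to 4.76%), a ratio of 0.990 (0.979 to 1.002). Of the 533 regions, 368 had at least 50 reads, with a median ratio of 0.965 and quartiles at 0.635 and 1.27. Among them 103 (28.0%) were at least 1.5-fold lower, beside 15.2% of all regions in the list, and 59 (16.0%) were at least 1.5-fold higher, beside 19.3%. Counting intervals lay below 1 for 102 (27.7%, beside 16.5%) and above 1 for 70 (19.02%, beside 29.2%). In the authors' deposited table, 152 of the 533 (28.5%) were higher at an adjusted p under 0.05, beside 37.3% of the list. The median of the whole nos list was 1.11, above that of 2L. The nos values depend on the scaling: centred on that median, 119 regions were lower (32.3%, beside 19.1% of all regions) and 44 higher (11.96%, beside 12.71%). With the library totals behind the authors' transposon table, 131 were lower (35.6%, beside 21.8%) and 37 higher (10.1%, beside 9.84%), with a median of 0.817 on 2L. The share of higher regions on 2L was thus below that of the list as deposited and close to it under both other scalings, while the share of lower regions exceeded it under all 3. Those scalings shift all nos log2 ratios by -0.16 and -0.24, and all tj log2 ratios by 0.02 and -0.02. Under them all 2L regions together had a nos ratio of 0.889 after centring and 0.838 with the transposon table totals. The nos regions outside 2L together stood at 1.09 as deposited.

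**Figure D1:**
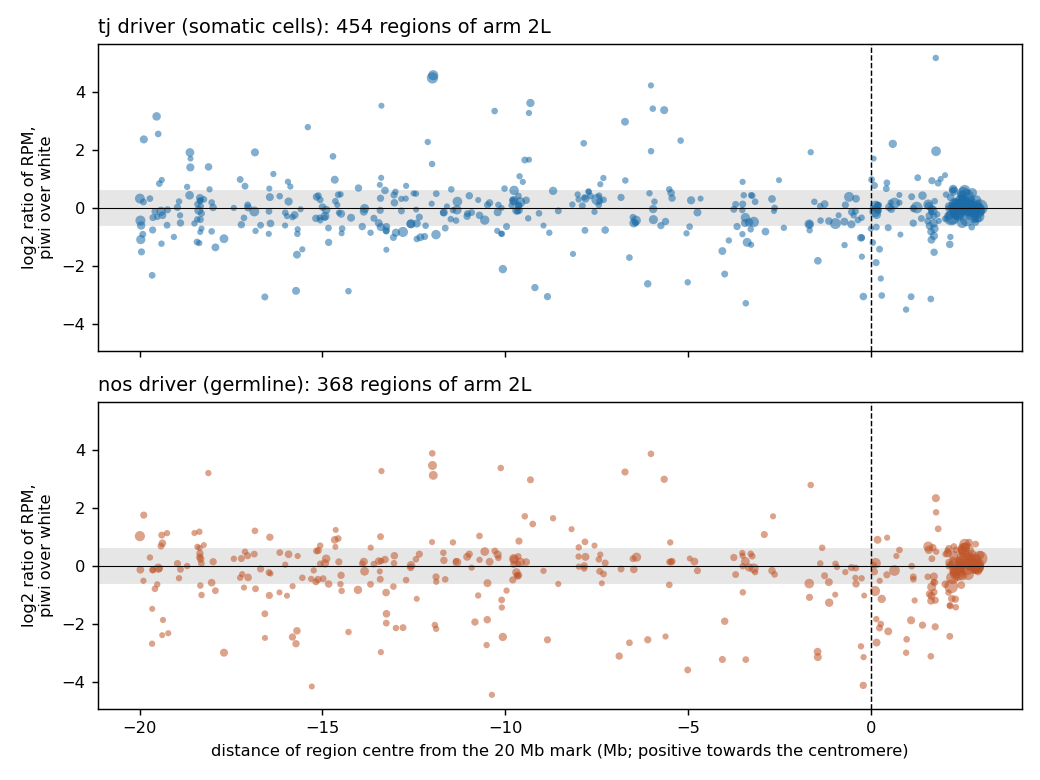
Log2 ratio of H3K9me3 RPM in piwi over white knockdown (vertical) for each 2L region with at least 50 reads, against the distance of its centre from the 20 Mb mark (horizontal, Mb), for 454 regions under tj (top) and 368 under nos (bottom). Point area grows with reads, the grey band marks less than 1.5-fold, and the dense large points beyond 22 Mb sit mostly within it while other regions scatter far above and below.

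The part from 20 Mb on was compared with the rest of the arm. Under tj the median ratio was 0.993 from 20 Mb on (133 regions, quartiles 0.806 and 1.19) and 0.943 before it (321 regions, 0.664 and 1.31), and 15.0% against 25.5% were at least 1.5-fold lower and 12.8% against 17.8% at least 1.5-fold higher. Under nos the medians were 0.971 (116 regions) and 0.961 (252 regions), 25.9% against 29.0% were lower and 11.2% against 18.3% higher. These counts move with depth, since regions towards the centromere held more reads, a median of 162 over both tj libraries against 92.5. Within classes of reads the order of the parts was not uniform. Past 1.5-fold in either direction were, from 20 Mb on and before it, 42.9% and 51.7% of tj regions of 50 to 100 reads, 48.1% and 36.0% at 100 to 200, 21.4% and 39.3% at 200 to 500, and 6.98% and 25% above that. The same shares under nos were 46.2% and 55.6%, 68.2% and 41.8%, 37.9% and 31.2%, and 12.8% and 40%, the last from 5 regions. Summed over regions, the ratio from 20 Mb on was 1.01 times that of the rest under tj (95% counting interval 0.988 to 1.03) and 1.04 times under nos (1.01 to 1.07). Over regions of at least 200 reads these values were 0.966 and 0.970, so no direction between the parts held.

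Within the part towards the centromere, the last 1 Mb and the 2 Mb before it differed under nos and hardly under tj. Under nos, the regions that begin between 20 and 21 Mb had 1688 reads in piwi and 3433 in white knockdown, a ratio of 0.690 (95% counting interval 0.651 to 0.732), and those between 21 and 22 Mb a ratio of 0.876 (0.827 to 0.928). From 22 Mb on the ratio was 1.04 (1.03 to 1.06), which is 0.938 after centring and 0.884 with the other library totals. Relative to the regions from 22 Mb on, which removes the scaling, the stretch from 20 to 22 Mb stood at 0.745 under nos (0.713 to 0.778) and at 0.979 under tj (0.946 to 1.01). The dip reached beyond the 20 Mb mark. Between 19 and 20 Mb the ratio was 0.507 under nos (0.449 to 0.571) and 0.763 under tj (0.716 to 0.813), the lowest of the 20 bins before the mark under nos. In those bins the ratio ran from 0.507 to 1.70 under nos and from 0.717 to 1.33 under tj. The nos bins that begin at 15 and 18 Mb, at 0.621 and 0.614, were also below the 0.690 of the bin from 20 Mb. Among the 20 bins the nos interval lay below 1 in 8 and above 1 in 5. The highest nos bin began at 8 Mb.

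**Figure D2:**
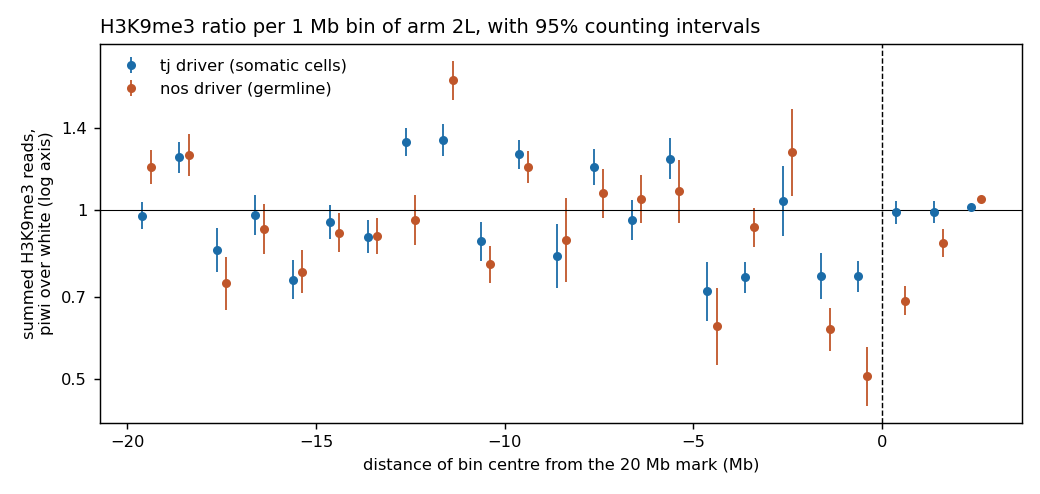
Ratio of summed H3K9me3 RPM in piwi over white knockdown (vertical, log axis) in 23 bins of 1 Mb along arm 2L, by distance of the bin centre from the 20 Mb mark (horizontal, Mb), with 95% counting intervals, tj in blue and nos in orange. The bins on either side of the mark are low under nos, at 0.507 and 0.690, and the last bin is close to 1 under both drivers.

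The nos regions that carry this dip were spread over the stretch. Of the 19 regions between 20 and 21 Mb with at least 50 reads, 9 were at least 1.5-fold lower under nos (47.4%, beside 15.2% of all regions in the list). Other bins of the arm reached such a share, 47.4% at 9 Mb, 50% at 18 Mb and 46.2% at 19 Mb. The lowest share was 0%, at 17 Mb, so a high share was not particular to this stretch. Another 2 were at least 1.5-fold higher (10.5%, beside 19.3%). The most distal wide one, chr2L:20097001-20108000, had 221 RPM in nos piwi and 401 RPM in nos white knockdown (0.550, interval 0.468 to 0.645). A little further on, chr2L:20141501-20149000 had 24.3 against 152 RPM (0.160, 0.101 to 0.245). The control was the higher library in both, and the second region rests on 24 piwi reads beside 210 control reads. Towards 20.5 Mb, chr2L:20282501-20290500 stood at 73.9 against 162 RPM (0.455, 0.345 to 0.596) and chr2L:20461001-20467000 at 30.4 against 145 RPM (0.210, 0.138 to 0.309). The exceptions in the same stretch were chr2L:20170001-20174000, at 135 against 72.2 RPM (1.87, 1.43 to 2.45), and chr2L:20434501-20435500, at 35.5 against 18.04 RPM (1.97, 1.14 to 3.43). Under tj the same bin had 9 lower regions of 30 (30%, beside 15.2% of all regions in the list) and 6 higher (20%, beside 11.7%). Among the higher ones was chr2L:20584001-20593000, at 171 against 36.5 RPM (4.67, 3.46 to 6.42). The nos region within it, chr2L:20586001-20588000, was higher too, at 30.4 against 10.1 RPM from 44 reads (3.01, 1.55 to 6.14). On either side of the 20 Mb mark itself, chr2L:19987501-19989500 had 17.4 RPM in tj piwi and 28.2 in tj white knockdown, and chr2L:20007501-20010500 had 45.3 and 22.7. In the nos list the neighbours of the mark were chr2L:19806001-19807500, with 13.2 against 26.7 RPM, and chr2L:20065001-20067000, with 35.5 against 34.6. The intervals of the first tj and the last nos region held 1.

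The drivers were also compared in this stretch over regions that both lists share. Between 20 and 21 Mb these held 1612 of the 1688 nos piwi reads and 3255 of the 3433 nos white reads. The nos ratio there therefore largely repeats that of the bin and is no separate evidence. Paired regions can also differ in bounds between the lists. Over the 25 pairs of overlapping regions between 20 and 21 Mb the ratio was 0.980 under tj (0.932 to 1.03) and 0.695 under nos (0.655 to 0.738), so the nos ratio was 0.709 times the tj ratio (95% counting interval 0.656 to 0.767). Over the 25 pairs between 21 and 22 Mb the quotient was 0.938 (0.866 to 1.02), and over the 65 pairs from 22 Mb on it was 1.03 (1.01 to 1.06). Over the 260 pairs before 20 Mb it was 1.03 (0.997 to 1.06). Next to the mark, over the 20 pairs between 18 and 20 Mb, both drivers were low, at 0.697 under tj and 0.619 under nos. The quotient there was 0.888 (0.799 to 0.986). Scaling by the other library totals lowers every such quotient by the same factor, and leaves their order as it is.

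The widest domains of the arm, all beyond 22 Mb, differed by less than 1.5-fold under tj. The widest one, chr2L:22337501-22378000, spans 40.5 kb and had 1948 RPM in tj piwi and 2034 in tj white knockdown, and 1707 and 2037 RPM under nos. Both controls lay close together there, and the ratio was 0.958 under tj (0.909 to 1.01) and 0.838 under nos (0.788 to 0.890). The domain at chr2L:22577001-22603500, which the nos list ends 1 kb earlier, had 2564 against 1982 RPM under tj (1.29, 1.23 to 1.36) and 2779 against 1918 under nos (1.45, 1.37 to 1.53). It had the highest ratio of the 5 widest domains under both drivers. Its neighbour chr2L:22605001-22631500 had 1053 against 1360 RPM under tj (0.774, 0.723 to 0.828) and 1182 against 1252 under nos (0.944, 0.876 to 1.02). These adjoining domains went opposite ways under tj, and under nos the interval of the second one held 1. The domain at chr2L:22172501-22201500 in the tj list had 1378 against 1726 RPM (0.798, 0.752 to 0.847), and the nos list gives it as chr2L:22172501-22199500, with 906 against 1477 RPM (0.613, 0.566 to 0.664). It was lower in piwi knockdown under both drivers. At the end of the assembled arm, chr2L:22955001-22981000 had 1956 against 1900 RPM under tj (1.03, 0.976 to 1.08), and under nos chr2L:22957001-22981000 had 2027 against 1690 (1.20, 1.13 to 1.27). The densest of the regions with most reads was chr2L:22696501-22717500, at 86.6 RPM per kb in tj white knockdown and a tj ratio of 1.003 (0.9499 to 1.06). Under nos chr2L:22700001-22717500 stood at 1.07 (1.01 to 1.15), and chr2L:22885001-22911000 had a tj ratio of 0.956 (0.906 to 1.01). With the other library totals the nos values of these domains are 0.846 times as large, which puts those at 1.07 below 1.

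Among regions with at least 50 reads, the highest ratios belonged to regions of 1 to 15 kb, and 1 of the 10 highest under tj and 0 of the 10 highest under nos lay beyond 20 Mb. The highest sums were those of a pair of regions near 8 Mb. Under tj, chr2L:7999001-8014000 had 825 RPM in piwi against 36.5 RPM in white knockdown (22.6-fold, interval 17.2 to 30.4), and chr2L:8024001-8032000 had 515 against 21.4 RPM (24.1-fold, 16.8 to 35.7). Under nos the same place was listed as 3 regions. Of these chr2L:7999001-8002000 had 85.1 against 5.77 RPM (14.7-fold, 7.15 to 35.3), chr2L:8003001-8013000 had 390 against 35.4 (11.03-fold, 8.18 to 15.2), and chr2L:8024001-8034000 had 365 against 41.85 (8.71-fold, 6.59 to 11.7). Both piwi knockdowns were high there and both controls low, at 1.92 to 4.19 RPM per kb where the median control region of the arm had 19.3 RPM per kb under tj and 19.48 under nos.

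Further regions were high in piwi knockdown in the same way. At chr2L:10681001-10688500 the tj values were 188 against 15.2 RPM (12.4-fold, 8.03 to 20.1), and under nos chr2L:10683501-10687500 had 107 against 13.7 RPM (7.83-fold, 4.78 to 13.5). At chr2L:14337501-14343500 they were 166 against 15.8 RPM (10.5-fold, 6.81 to 16.8), and under nos chr2L:14338001-14344000 had 132 against 16.6 RPM (7.94-fold, 5.07 to 13.0). At chr2L:13977501-13979000 they were 39.0 against 2.07 RPM, from 3 control reads (18.9-fold, 6.14 to 94.3), and under nos chr2L:13977501-13979500 had 84.1 against 5.77 RPM (14.6-fold, 7.06 to 34.9). Both piwi knockdowns were the higher libraries at these places, which were chosen for their ratios. At chr2L:6612501-6613500 tj had 32.0 against 2.76 RPM (11.6-fold, 4.25 to 44.5), and under nos chr2L:6612001-6614000 had 55.7 against 5.77 (9.65-fold, 4.57 to 23.5). Under nos chr2L:13267001-13272000 had 123 against 13.0 RPM (9.44-fold, 5.73 to 16.5), where tj had a ratio of 7.93. The member of the 10 highest beyond 20 Mb was tj region chr2L:21762501-21764000, with 50.1 against 1.38 RPM from 2 control reads (36.4-fold, 9.72 to 306). Next to it chr2L:21765001-21778000 had 351 against 89.5 RPM (3.92-fold, 3.23 to 4.79), and under nos chr2L:21762501-21769000 had 201 against 39.7 RPM (5.05-fold, 3.73 to 6.94). The remaining regions among the 10 highest were, under tj, chr2L:14027001-14030000 (10.8-fold), chr2L:9705001-9707000 (10.2-fold) and chr2L:10643501-10644500 (9.77-fold), and under nos chr2L:9871001-9876000 (10.4-fold) and chr2L:1881001-1883500 (9.20-fold).

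The lowest ratios among regions with at least 50 reads were found in regions of 52 to 241 reads over both libraries, with 4 of 10 under tj and 1 of 10 under nos beyond 20 Mb. At chr2L:16570001-16572000, listed with the same bounds for both drivers, the mark was 5.57 RPM in tj piwi against 53.7 in tj white (0.104, interval 0.0433 to 0.215) and 7.09 in nos piwi against 66.4 in nos white knockdown (0.107, 0.0418 to 0.229). At chr2L:21627001-21628500, also with equal bounds, it was 6.96 against 60.6 RPM under tj (0.115, 0.0532 to 0.221) and 7.09 against 61.3 under nos (0.116, 0.0451 to 0.249). These are the reverse pattern, with both controls high and both piwi knockdowns low. At chr2L:19781001-19787000 tj had 13.9 against 114 RPM (0.122, 0.0725 to 0.194), and under nos chr2L:19780001-19784000 had 6.08 against 105 RPM (0.0577, 0.0208 to 0.129). At chr2L:20951001-20953500 tj had 4.18 against 46.8 RPM (0.0892, 0.0316 to 0.204), and under nos chr2L:20952001-20954500 had 6.08 against 48.3 RPM (0.126, 0.0446 to 0.288). At chr2L:11148501-11152500 tj had 11.1 against 91.6 RPM (0.122, 0.0676 to 0.205). The widest of the tj set, chr2L:4274501-4282000, had 20.2 against 145 RPM (0.140, 0.0913 to 0.207). Of the others under tj, chr2L:3424001-3427000, chr2L:21088001-21090500, chr2L:20286001-20289500 and chr2L:5709501-5713000 had ratios of 0.121 to 0.139.

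Some of the lowest nos regions rested on very few reads in piwi knockdown. The lowest among those with at least 50 reads, chr2L:9629501-9632000, had 2 reads in nos piwi and 61 in nos white knockdown (0.0460, 0.00545 to 0.174), and chr2L:4708001-4710500 had 2 and 50 (0.0562, 0.00662 to 0.214). Better covered was chr2L:18536501-18542000, with 18.2 against 161 RPM (0.113, 0.0659 to 0.183). Under tj chr2L:18537501-18544000 stood at 0.286. At chr2L:13107501-13113500 nos had 12.2 against 105 RPM (0.116, 0.0587 to 0.209) and at chr2L:15929001-15932500 it had 9.12 against 85.1 (0.107, 0.0478 to 0.210). The other 2 were chr2L:14981501-14984500 (0.0834) and chr2L:19789001-19792000 (0.113).

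Both drivers were then set side by side. The 2 comparisons share no library. Of the 530 tj regions 383 (72.3%) overlapped a nos region by at least 1 base, and 404 of the 533 nos regions (75.8%) overlapped a tj region. Overlap was counted on 2L only, so whether these shares, or those of the pairs below, are particular to the arm was not tested. Matched one to one by largest overlap, 292 pairs had at least 50 reads in each list, 69 of them with equal bounds. In these pairs 60 were at least 1.5-fold lower under tj (20.5%) and 71 under nos (24.3%), and 46 were lower under both, which is 76.7% of the tj and 64.8% of the nos set. Higher under both were 18, which is 47.4% of the 38 under tj and 41.9% of the 43 under nos. Opposite directions past 1.5-fold were found in 2 pairs higher under tj and 2 higher under nos, all before 20 Mb. Of the 38 pairs past 2-fold under both drivers, 37 had the same direction. Smaller differences were less alike: in all 202 of the 292 pairs lay on the same side of 1, and among the 69 with equal bounds 35 did. Over the 292 pairs Pearson's r between the log2 ratios of the drivers was 0.79 and Spearman's rho was 0.60. Over the 69 pairs with equal bounds the correlation of the ratios between drivers was lower, at 0.63. It was 0.55 over the 43 of these before 20 Mb and 0.78 over the 26 from 20 Mb on. These values are a description, since all points of a driver come from the same pair of libraries.

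**Figure D3:**
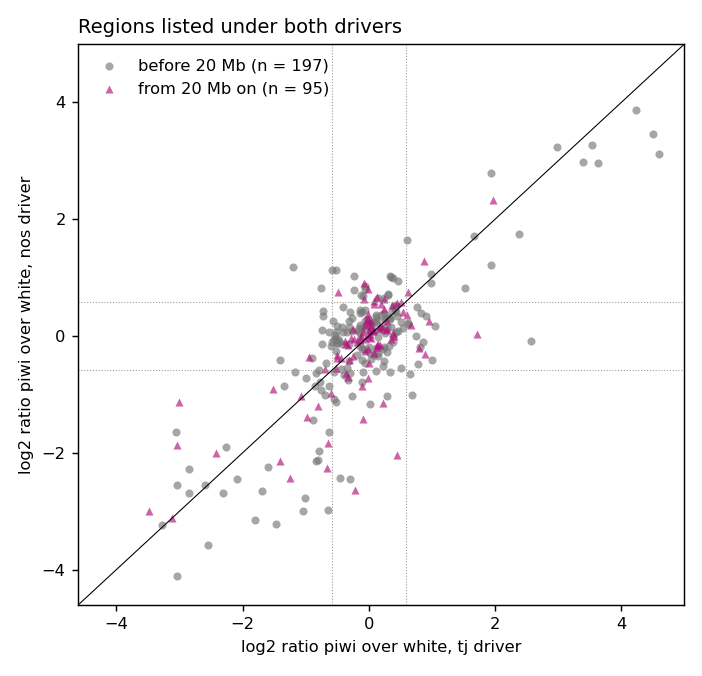
Log2 ratio of H3K9me3 RPM in piwi over white knockdown under tj (horizontal) and nos (vertical) for 292 pairs of overlapping 2L regions, 197 before 20 Mb (grey circles) and 95 from 20 Mb on (purple triangles). The line marks equal ratios and dotted lines 1.5-fold, and the regions far from 0 lie near the line at both ends, with 46 pairs lower and 18 higher under both drivers.

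The levels of the 4 libraries show the same pattern. Over the 292 pairs the log2 RPM per kb of the controls correlated between drivers with a Pearson r of 0.87, and those of the piwi knockdowns with 0.83. Within a driver, piwi correlated with white knockdown at 0.44 under tj and 0.41 under nos. Before 20 Mb the between-driver values were 0.82 and 0.79 and the within-driver values 0.20 and 0.19, and from 20 Mb on they were 0.90 and 0.87 against 0.70 and 0.71. Over the 69 pairs with equal bounds they were 0.82 and 0.83 against 0.61 and 0.57. Among these, the 43 pairs before 20 Mb had 0.75 and 0.77 against 0.52 and 0.47, a smaller gap than over all pairs there. The 26 pairs from 20 Mb on had 0.84 and 0.86 against 0.57 and 0.48. In these pairs, regions before 20 Mb were thus more alike in level between libraries of the same knockdown than between libraries of the same driver. A region can enter a list, and pass the minimum of reads, through 1 library of a driver alone. These values therefore describe the listed pairs and not the arm. Whether input DNA over these regions differed between the lines was not analysed here.

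**Figure D4:**
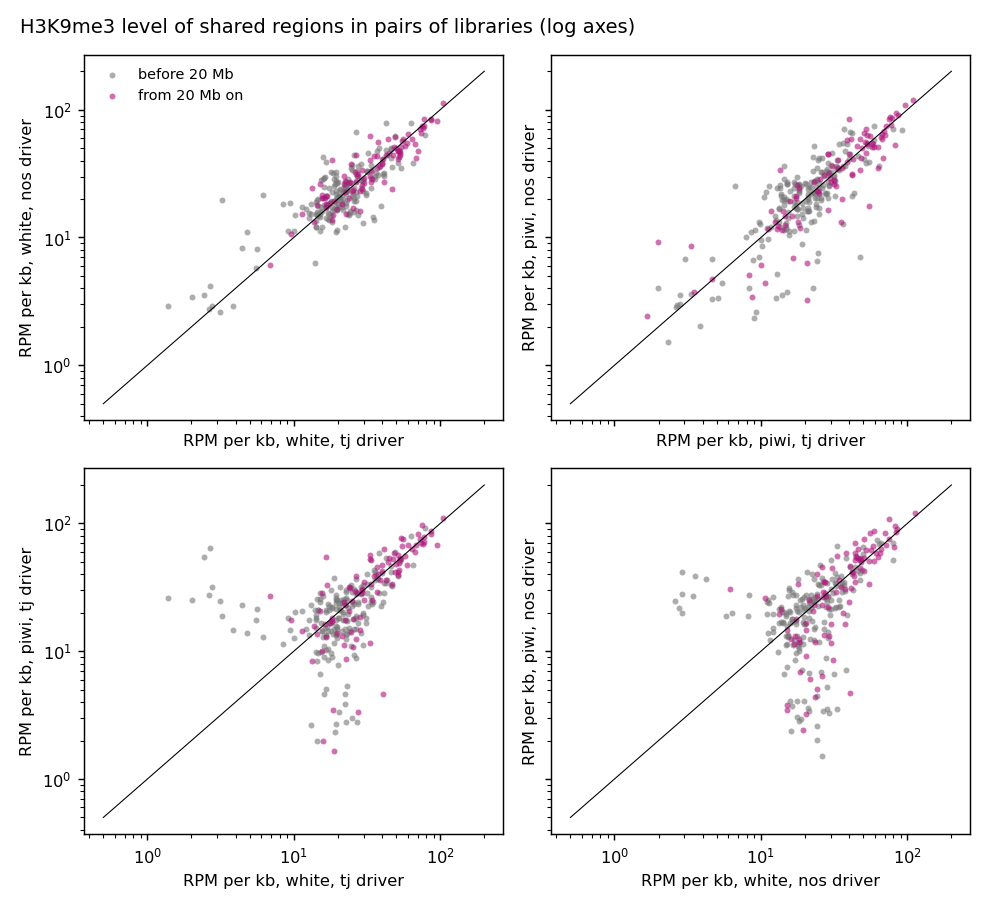
H3K9me3 level (RPM per kb, log axes) of the 292 paired 2L regions in 4 pairs of libraries, with regions before 20 Mb in grey and from 20 Mb on in purple and the line of equal levels. The upper panels compare drivers within white and within piwi knockdown (r of 0.87 and 0.83) and the lower panels compare piwi with white within tj and within nos (r of 0.44 and 0.41), where separate arms of points are high in 1 knockdown and low in the other.

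Regions without a partner in the other list were small. The 147 tj regions with no overlapping nos region had a median width of 1.5 kb and a median of 68 reads, against 2.5 kb and 125 reads for the rest, and 115 of them lay before 20 Mb. Of the 102 with at least 50 reads, 27 were lower and 21 higher by 1.5-fold, beside 75 and 53 of the 352 with a partner. Over all regions of the tj list the shares were 15.2% and 11.7%. The 129 nos regions with no tj partner had a median width of 1.0 kb and 40 reads. Of the 48 with at least 50 reads, 21 were lower and 8 higher, beside 82 and 51 of the 320 with a partner. Over all regions of the nos list the shares were 15.2% and 19.3%. The missing partner therefore does not show that the mark was absent under the other driver at this depth.

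Neighbours were compared as well. Among regions with at least 50 reads, 245 pairs of neighbours in the tj list were no more than 25 kb apart. In 39 of these pairs (15.9%) both were past 1.5-fold, 33 in the same direction and 6 in opposite directions. Under nos there were 44 such pairs of 198 (22.2%), 34 in the same direction and 10 in opposite ones. Single regions past it were 38.8% under tj and 44.0% under nos. Even unrelated neighbours would both be past it less often than single regions, so these shares are not like measures. Neighbours were counted on 2L only. Whether they were alike more often than unrelated regions, or than neighbours elsewhere in the lists, was not tested. Neighbours were a median of 5.5 kb apart from 20 Mb on and 34.0 kb before it in the tj list.

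At the far end, next to the telomere, lay a region described here because it is the outermost, after its values were seen. Under tj chr2L:5501-16000 had 263 against 207 RPM (1.27, 1.09 to 1.48), and under nos chr2L:5001-16000 had 462 against 227 RPM (2.04, 1.76 to 2.36). The controls were close to each other, and nos piwi knockdown had the highest value. In Release 6 the outermost gene coding for a protein on this end is l(2)gl, a tumour suppressor gene of cell polarity. The next region, chr2L:21501-29000 under tj and chr2L:21501-24000 under nos, had ratios of 0.749 and 0.913.

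Against 3L, 3R and X, 2L was not the most affected. The other arm of the same chromosome, 2R, was not compared here. As deposited, the summed ratio under nos was 0.990 on 2L, 1.03 on 3L (1.02 to 1.04), 0.753 on 3R (0.740 to 0.766) and 0.924 on X (0.916 to 0.933). Under tj it was 1.01 on 2L, 0.946 on 3L, 0.841 on 3R and 0.878 on X. The share of regions at least 1.5-fold lower under nos was 28.0% on 2L, 21.3% on 3L, 32.4% on 3R and 18.4% on X. Under tj it was 22.5% on 2L, 18.1% on 3L, 25.9% on 3R and 21.6% on X. The share at least 1.5-fold higher was largest on 3R among these arms under both drivers. On 2L, 3L and X it was 16.3%, 13.7% and 11.2% under tj, and 16.0%, 15.7% and 15.1% under nos.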

How the data were processed

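H3K9me3 ChIP-seq of 4 samples was used, 1 per group, grouped by title. Per the submitters' processing notes, Bowtie2 2.0.0 and SICER 1.1 were used with build dm3, without a statement of the step each performed. The deposited lists give the RPM of each region in both libraries of a driver and, per the file headers, an adjusted p-value and a fold (a ratio) by the authors. Regions start at multiples of 500 bases, counted from 0, and are printed 1-based. The 4 H3K9me3 columns of the authors' transposon table, in RPM, gave a second set of library totals, 2514000 to 3047000.

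Whole reads were recovered for 100% of region values within 1e-06 reads. With 1 library per group no count test was possible, so counts past 1.5-fold among regions of at least 50 reads over both libraries were used. Intervals are exact Clopper-Pearson 95% intervals or, for quotients of ratios, come from reciprocal read sums. They cover counting error only, since reads that carry no molecular identifiers need not be independent molecules. The code was tested on simulated reads. Members, the list of genes and the marks were chosen with earlier results of these data known. Named regions are, per driver, the 10 lowest and 10 highest ratios of regions with at least 50 reads, the 5 with most control reads, the 5 widest and those next to 20 Mb, and others were chosen after their values were seen. Alternatives changed read minimum, fold, boundary, scaling, list threshold and overlap. Sequences and gene positions in dm3 were not used here. Python 3.11.15, numpy 2.4.6, scipy 1.17.1 and pandas 2.3.3 were used.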

Additional observations from a re-analysis of the deposited data

Results flagged for a closer look

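In 2 pairs of overlapping regions the drivers went opposite ways, each past 1.5-fold with a counting interval on its own side of 1. The tj region chr2L:1633501-1635500 had a ratio of 0.437 (0.241 to 0.764), while the nos region overlapping it by 1 kb, chr2L:1634501-1636500, had 2.26 (1.42 to 3.67). At chr2L:12174001-12176000, with equal bounds, the ratio was 0.592 under tj (0.393 to 0.883) and 1.78 under nos (1.18 to 2.69). These regions held 63 to 111 reads per driver. The difference between drivers was not tested, and each rests on 1 library per group.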

How the results depend on the processing

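Of 106 values under alternative settings, 68 stayed within 1.5 times the count, or within the interval, given in the report and 38 moved. No paired analysis was possible because each driver has 1 library per knockdown, and a fit over both drivers together was not run. With at least 200 reads, 20 of 152 tj regions were lower and 18 higher. Under nos 18 of 105 were lower and 10 higher, and the nos median before 20 Mb was 1.09. With no minimum, 169 of 533 nos regions were lower and 122 higher. At 2-fold, 47 of 454 tj regions were lower and 39 higher, and 30 of 368 nos regions were higher. With a smaller fold as the mark, 122 tj and 97 nos regions were higher. Among regions with the authors' adjusted p under 0.001, which holds gains alone, 0 tj and 0 nos regions were lower, and the medians from and before 20 Mb were 1.78 and 3.03 under tj and 1.53 and 2.36 under nos. Centring moved the nos medians to 0.872 and 0.863, and the library totals of the transposon table moved them to 0.822 and 0.814 and left 37 nos regions higher (10.1%, beside 9.84% of all nos regions under the same totals). From 21 Mb on, 11 of 103 tj regions were lower and 11 higher. From 22 Mb on, 3 of 71 were lower and 5 higher under tj, and 10 of 71 lower and 6 higher under nos. Apart from the 37 nos regions above, shares over all regions of the list were not taken for these counts. Whether they exceed the list was therefore not tested. The summed ratio towards the centromere over that of the rest was 0.979 under tj and 1.01 under nos with the mark at 19 Mb, and 1.11 and 1.13 under nos with it at 21 and 22 Mb. It was 1.03 under tj without the region of most reads on each side, and 0.966 under tj and 0.970 under nos with at least 200 reads, for which the cause was not tested. At 90% reciprocal overlap, 101 tj and 101 nos regions were shared. Depth limits single regions: 76 tj and 165 nos regions had under 50 reads.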
